A study of Homo sapiens with 21 samples.

Results

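The epidermal growth factor receptor (EGFR) family and its ligands were followed in HEY, a cell line from a human ovarian cancer, after transfection with mir-429. The group was fixed as 9 genes: the receptors EGFR, ERBB2, ERBB3 and ERBB4, the receptor inhibitor ERRFI1, and the ligands AREG, EREG, HBEGF and TGFA. All probe sets that the platform annotation assigned to these symbols were taken, 31 of the 54675 on the array. They covered 8 of the 9 genes, since the annotation used here lists no probe set for AREG. Of these 8 genes, 5 (EGFR, ERBB2, ERRFI1, HBEGF and TGFA) passed the filter on dim genes and were tested among 12879 genes. ERBB3, ERBB4 and EREG did not pass it.

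The 21 arrays came in 7 groups of 3. Cells transfected with mir-429 were sampled at 24, 48 and 144 h, cells transfected with a synthetic miRNA that served as negative control at the same times, and untransfected cells at 0 h. Both transfected arms received their miRNA with a lipid reagent, and the untransfected cells received neither. The labels call the replicates biological and say no more about the cultures, so a p-value here measures only the spread among these arrays. HEY is a single cell line, and the amount of mir-429 in the cells was not measured on these arrays. Values are log2 expression per probe set, on which a difference of 1 is a 2-fold change, and they compare groups, not genes, since probe sets differ in brightness. In such bulk RNA, fewer cells that express a gene and less RNA of it per cell cannot be told apart.

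ERBB receptors are tyrosine kinases that pair when a ligand binds and then signal through RAS and the ERK kinases and through PI3 kinase. TGFA, HBEGF, AREG and EREG are made as membrane-anchored precursors and act on the same or neighbouring cells once a metalloprotease such as ADAM17 releases them. ERBB2 has no known ligand and works as a partner, ERBB3 has little kinase activity of its own and binds neuregulins, and ERBB4 binds neuregulins and several of the EGF-like ligands. ERRFI1, also called MIG6, binds the EGFR kinase and shuts it off. It has been described as a target of the miR-200 family, to which mir-429 belongs.

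The sequence of mir-429 is shown with its relatives because the seed, bases 2 to 8 in capitals, largely sets which mRNAs a microRNA binds. The mature sequences are those of RefSeq on GRCh38.p14, printed 5′ to 3′.
hsa-miR-429: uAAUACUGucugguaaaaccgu
hsa-miR-200b-3p: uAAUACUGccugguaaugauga
hsa-miR-200c-3p: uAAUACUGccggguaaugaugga
hsa-miR-200a-3p: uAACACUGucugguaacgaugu
hsa-miR-141-3p: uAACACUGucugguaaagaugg
mir-429 has the same seed as miR-200b and miR-200c, AAUACUG. miR-200a and miR-141 share the seed AACACUG. mir-429 is encoded at chr1:1169055-1169076 on the plus strand, near miR-200b and miR-200a.

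The identity markers were mixed. PAX8, an ovarian epithelial marker, and keratin 18 (KRT18) were bright on all arrays (group means of 10.44 to 11.43 and 11.41 to 12.76), as was vimentin (VIM, 13.02 to 13.23). CDH1 and EPCAM lay below the array medians of 3.95 to 4.29. None of the 10 leukocyte markers with a probe set passed the filter, against 6 of 10 endothelial and 3 of 10 fibroblast markers. The summed level of the 10 endothelial markers was lower with mir-429 than with control at 24 h (44.58 to 45.32 against 45.93 to 47.35) and at 48 h (42.96 to 44.84 against 45.76 to 46.78), and overlapped at 144 h. The summed level of 11 mesenchymal markers was lower with mir-429 at 48 h (95.73 to 96.93 against 102.39 to 102.97) and at 144 h (99.16 to 100.59 against 100.71 to 100.85), and overlapped at 24 h. That of 13 ovarian epithelial markers was higher with mir-429 at 48 h (76.12 to 78.69 against 74.87 to 75.7) and overlapped at 24 and 144 h. Single epithelial markers went both ways at 24 h. PAX8 was lower with mir-429 (-0.85 ± 0.15, limma adjusted p = 0.000409) and KRT7 higher (0.83 ± 0.17, limma adjusted p = 0.00151). At 48 h the median difference of mir-429 and control was -0.08 over the 9 tested mesenchymal genes and 0.01 over the 8 tested epithelial genes. These 2 sums thus shifted through part of their lists, such as FN1 (-2.66) and KRT7 (0.93). The part of these shifts in the results was not tested. Array quality differed between groups. On the GAPDH and ACTB control probe sets the difference of 3' and 5' signal, called 3' minus 5' signal here, grows as RNA or its labelling loses the 5' end. It was 2.87 ± 0.36 with mir-429 and 4.21 ± 0.21 with control at 24 h (SD, n = 3), 8.55 ± 0.15 and 7.83 ± 0.62 at 48 h, and 3.35 ± 0.13 and 3.90 ± 0.48 at 144 h. In untransfected cells it was 3.15 ± 0.53. Both 48 h arms thus stood apart from all other arrays, and the arms at 24 h did not overlap (2.54 to 3.25 against 4.004 to 4.43).

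TGFA, a high-affinity EGFR ligand, was the member that changed most. On its brightest probe set it was about 3-fold higher with mir-429 than with control at 24 and 48 h. On that probe set it lay above control on every array at 144 h, by less and without passing the threshold. HBEGF, a ligand of EGFR and ERBB4 that also binds heparin, was higher at 48 h. EGFR, ERBB2 and ERRFI1 passed the threshold in no comparison of mir-429 with control at a single time. A gene passed the threshold, or was called, at a Benjamini-Hochberg adjusted p under 0.05 in limma's fit across all genes. By this rule 1 of 5 tested members was called at 24 h (TGFA), 2 at 48 h (TGFA and HBEGF) and 0 at 144 h, all of them higher. Over all genes tested, 26.6%, 20.6% and 5.85% were called at these times: 15%, 9.32% and 1.48% higher and 11.6%, 11.3% and 4.37% lower. With 5 members a count of 1 or 2 is near that background and says nothing particular of the family. The median difference of the 5 members was 0.15, -0.09 and 0.13, beside -0.02, -0.01 and -0.04 over all genes.

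**Figure D1:**
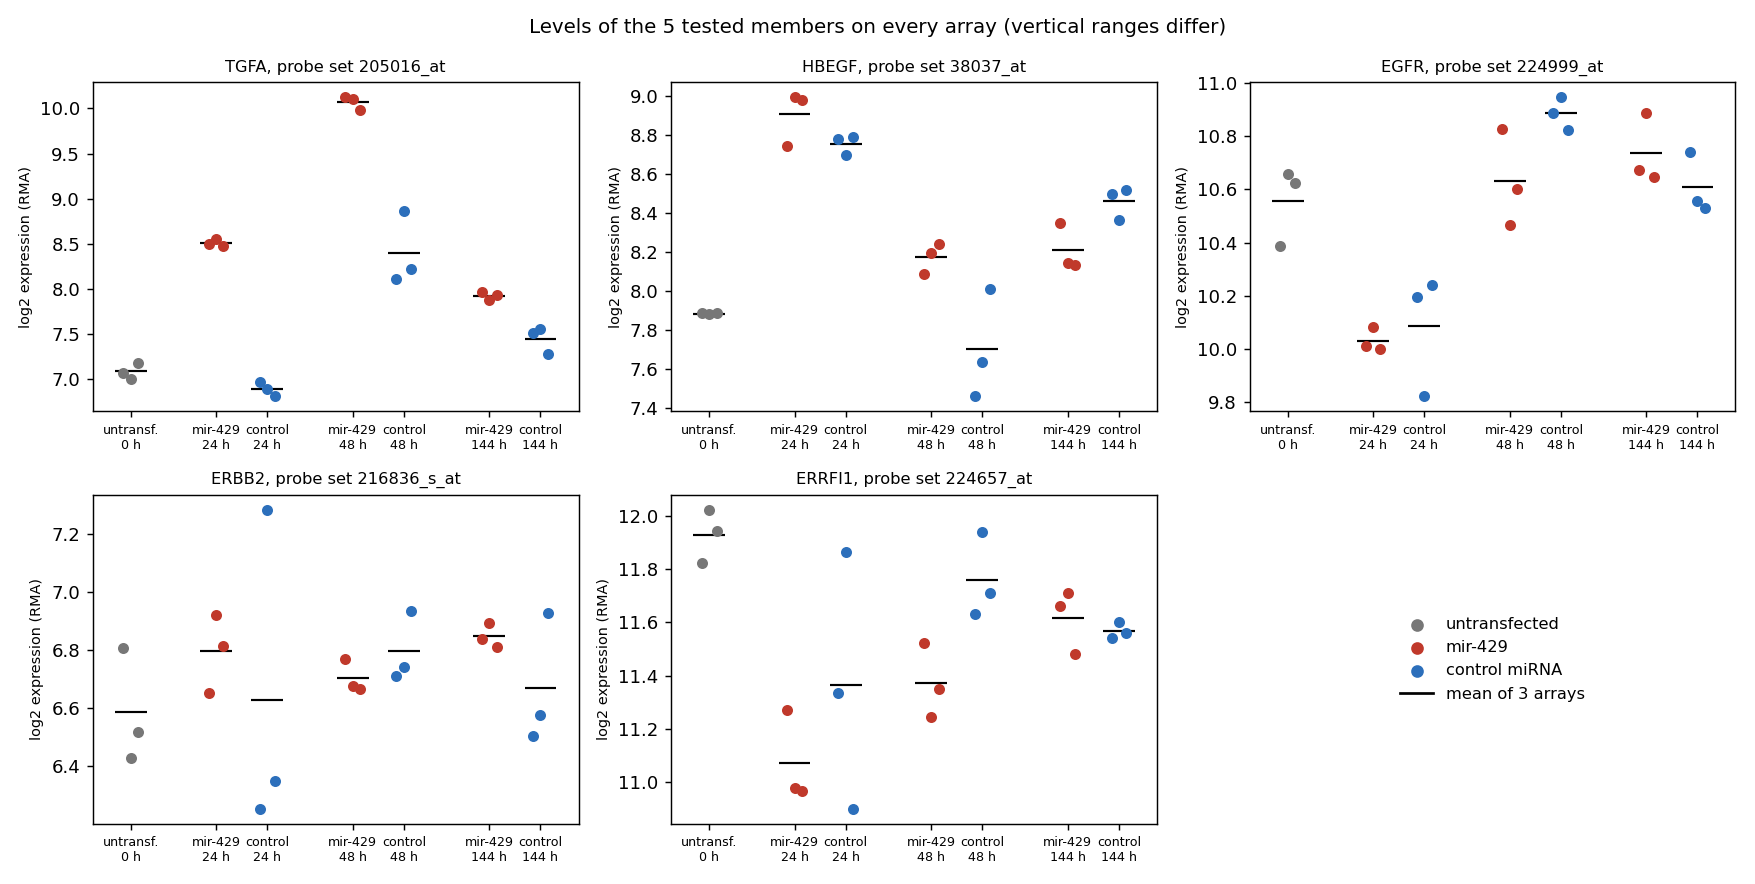
Log2 expression (vertical axis, a separate range in each panel) of the 5 tested members on each of the 21 arrays, by group (horizontal axis), with the mean of 3 arrays as a bar. TGFA on mir-429 arrays lay above control at all 3 times, while EGFR, ERBB2 and ERRFI1 of both arms overlapped at 24 and 144 h.

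TGFA was read by the probe set 205016_at. At 24 h it was at 8.50, 8.56 and 8.48 on mir-429 arrays, against 6.96, 6.89 and 6.81 on control arrays. All mir-429 arrays lay above all control arrays, and the difference was 1.62 ± 0.14 (SE; 95% interval 1.33 to 1.92), a 3.08-fold higher level (limma adjusted p = 3.09e-07). It ranked 34th from the highest change among 12879 genes. At 48 h it was at 10.12, 10.10 and 9.98 on mir-429 arrays, against 8.11, 8.86 and 8.22 on control arrays. The groups again did not overlap, and the difference was 1.67 ± 0.14 (limma adjusted p = 1.17e-07), or 3.19-fold. At 144 h the values were 7.97, 7.88 and 7.93 with mir-429, against 7.51, 7.55 and 7.27 with control. The gap was smaller here and just missed the threshold, at 0.48 ± 0.14 (95% interval 0.19 to 0.78; limma adjusted p = 0.0509). It was past the threshold in 7 of 18 alternatives, among them a fit without the 48 h arrays (0.48, limma adjusted p = 0.0051), with adjusted p between 0.00341 and 0.345 over all of them.

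The decline of the TGFA difference with time was tested directly. Between 24 and 144 h it changed by -1.14 ± 0.20 (limma adjusted p = 0.000965) and between 48 and 144 h by -1.19 ± 0.20 (limma adjusted p = 0.000802). Of all genes, 18.6% and 9.47% were called in these 2 comparisons. Between 24 and 48 h the difference moved by 0.05 ± 0.20 (95% interval -0.37 to 0.47; limma adjusted p = 0.904; 4.89% of all genes were called). Averaged over the times, TGFA was higher with mir-429 by 1.26 ± 0.08 (n = 9 arrays per arm; limma adjusted p = 3.04e-09), where 28% of all genes were called, and none of the other 4 tested members was.

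TGFA also moved in control cells. It was higher in control cells at 48 h than in untransfected cells by 1.31 ± 0.14 (8.40 ± 0.40 against 7.08 ± 0.09, SD, n = 3; limma adjusted p = 6.63e-07), and 54.5% of all genes were called in that comparison. At 24 and 144 h the differences from untransfected cells were -0.20 ± 0.14 and 0.36 ± 0.14 (limma adjusted p = 0.287 and 0.258). From highest to lowest, the 7 group means of TGFA ran mir-429 at 48 h (10.07), mir-429 at 24 h (8.51), control at 48 h (8.40), mir-429 at 144 h (7.93), control at 144 h (7.44), untransfected (7.08) and control at 24 h (6.89). Only mir-429 at 24 h and control at 48 h, neighbours in this order, overlapped. The comparison with untransfected cells at 48 h rests on arrays of very different quality: with the 3' minus 5' signal as a covariate in the fit it was at 1.71 with an adjusted p = 0.138.

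The array holds other probe sets for TGFA. On 205015_s_at the values at 24 h were 5.14, 5.35 and 5.27 with mir-429, against 4.52, 3.79 and 4.59 with control. The difference was 0.95 ± 0.28 (limma adjusted p = 0.0238 over 30553 probe sets, of which 18.3% were called). At 48 h they were 6.81, 6.05 and 6.39 with mir-429, against 4.61, 4.89 and 5.25 with control, a difference of 1.50 ± 0.28 (limma adjusted p = 0.00123; 15.3% of probe sets were called). Both probe sets thus placed TGFA higher with mir-429 at 24 and 48 h. At 144 h the arms overlapped on 205015_s_at, at 3.81, 4.88 and 4.23 with mir-429 against 4.52, 3.90 and 3.81 with control. The dim 211258_s_at lay below every array median and was not tested. With the 3' minus 5' covariate the difference on 205016_at was 1.51 ± 0.22 at 24 h and 1.73 ± 0.17 at 48 h (limma adjusted p = 0.000976 and 5.24e-06), and that on 205015_s_at at 24 h was 0.65 ± 0.42 (limma adjusted p = 0.508).

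The promoters of the ligands that were called are shown for orientation, as 250 bases before and 50 after the start site in the RefSeq table of GRCh38.p14. Capitals mark matches to CACCTG on either strand, the E-box that the ZEB repressors bind, and ZEB1 itself was lower with mir-429 in these arrays (-1.29 ± 0.15 at 24 h, limma adjusted p = 6.5e-06). The table gives TGFA a pair of start sites on the minus strand of chromosome 2, at chr2:70553777-70554076 and chr2:70553397-70553696, and places HBEGF at chr5:140346554-140346853 on the minus strand.
TGFA, upstream start: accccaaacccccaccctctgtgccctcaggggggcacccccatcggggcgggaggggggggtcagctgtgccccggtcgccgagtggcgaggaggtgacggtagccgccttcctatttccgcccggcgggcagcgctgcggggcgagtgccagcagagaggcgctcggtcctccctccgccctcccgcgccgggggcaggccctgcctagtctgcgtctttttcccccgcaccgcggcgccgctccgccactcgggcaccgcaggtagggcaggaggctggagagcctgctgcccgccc
TGFA, downstream start: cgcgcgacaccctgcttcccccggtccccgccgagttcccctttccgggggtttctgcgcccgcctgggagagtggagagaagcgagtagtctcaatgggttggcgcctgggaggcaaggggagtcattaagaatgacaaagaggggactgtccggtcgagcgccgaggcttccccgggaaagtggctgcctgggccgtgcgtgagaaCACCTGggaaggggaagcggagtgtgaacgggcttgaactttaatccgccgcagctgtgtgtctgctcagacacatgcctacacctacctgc
HBEGF: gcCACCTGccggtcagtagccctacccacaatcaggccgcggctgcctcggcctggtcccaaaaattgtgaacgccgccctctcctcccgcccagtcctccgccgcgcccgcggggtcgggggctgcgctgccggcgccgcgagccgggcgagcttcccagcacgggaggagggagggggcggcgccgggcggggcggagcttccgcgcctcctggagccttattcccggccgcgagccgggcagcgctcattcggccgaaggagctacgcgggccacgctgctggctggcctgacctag
The upstream TGFA window has no match, the downstream window has 1 beginning 42 bases before its start, and that of HBEGF has 1 beginning 248 bases before it. Of all 35116 promoter windows 20.6% hold such a match, so these matches describe the letters and no more. The AP-1 site TGANTCA, found in 7.71% of windows, and the cyclic AMP response element TGACGTCA, found in 1.85%, occur in none of these 3.

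HBEGF was called higher with mir-429 at 48 h, and its lower values at 144 h did not pass the threshold. At 48 h its probe set 38037_at was at 8.09, 8.20 and 8.24 on mir-429 arrays, against 7.46, 7.64 and 8.01 on control arrays. All mir-429 arrays lay above the control arrays, by 0.47 ± 0.12 on average (95% interval 0.23 to 0.72; limma adjusted p = 0.00757). In a fit of these 6 arrays alone, the limma adjusted p was 0.144. At 144 h it was at 8.35, 8.15 and 8.14 with mir-429, against 8.50, 8.37 and 8.52 with control, so all mir-429 arrays lay below control by a small margin (-0.25 ± 0.12, limma adjusted p = 0.244). The change of the difference between 48 and 144 h was -0.72 ± 0.17 (limma adjusted p = 0.00906). At 24 h the arms overlapped, with 8.75, 8.99 and 8.98 on mir-429 arrays against 8.78, 8.70 and 8.79 on control arrays (0.15 ± 0.12, limma adjusted p = 0.38).

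Against untransfected cells, HBEGF was higher in control cells at 24 h by 0.87 ± 0.12 (means of 8.76 against 7.89; limma adjusted p = 2.76e-05; 38% of all genes were called). It was also called higher in control cells at 144 h, by 0.58 ± 0.12 (limma adjusted p = 0.0293), where 0.474% of all genes were called. That call was lost in 10 of 18 alternatives, each of the 6 fits without 1 array among them, with adjusted p up to 0.246. The second bright probe set, 203821_at, gave 0.57 ± 0.12 for mir-429 against control at 48 h (limma adjusted p = 0.00449) and 0.70 ± 0.12 for control at 24 h against untransfected cells (limma adjusted p = 0.000507). The other 2 HBEGF probe sets, 222076_at and 244857_at, lay mostly below the array medians. By group mean HBEGF was highest with mir-429 at 24 h (8.91) and lowest in control at 48 h (7.70), and the arms at 24 h overlapped.

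ERRFI1, the inhibitor of EGFR and a described miR-200 family target, had a single probe set, 224657_at. At 24 h it was at 11.27, 10.98 and 10.97 on mir-429 arrays, against 11.34, 11.86 and 10.90 on control arrays. The control arrays spread over nearly 1 log2 unit and spanned the mir-429 values. The difference was -0.29 ± 0.17 (95% interval -0.65 to 0.06; limma adjusted p = 0.219). Without control 24 h replicate 3, the lowest of them, it was -0.53 (limma adjusted p = 0.022), and without control 24 h replicate 2, the highest, it was -0.05. With array weights and all arrays kept, it was -0.30 (limma adjusted p = 0.0123). These 2 calls were the only ones in 18 alternatives. At 48 h ERRFI1 was at 11.52, 11.24 and 11.35 with mir-429, against 11.63, 11.94 and 11.71 with control. All mir-429 arrays lay below the control arrays, yet the difference of -0.39 ± 0.17 did not pass the threshold (95% interval -0.74 to -0.03; limma adjusted p = 0.122). At 144 h the arms overlapped, at 11.66, 11.71 and 11.48 with mir-429 against 11.54, 11.60 and 11.56 with control (0.05 ± 0.17, 95% interval -0.31 to 0.41).

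Averaged over times, ERRFI1 was at -0.21 ± 0.10 with mir-429 (limma adjusted p = 0.123). It was called lower in 2 of 29 alternatives. These were array weights (-0.22, limma adjusted p = 0.0228) and the fit without control 24 h replicate 3 (-0.29, limma adjusted p = 0.0131). In the fit without a covariate, a 2-fold fall lay outside the interval at each of the 3 times. With the 3' minus 5' covariate, the difference of mir-429 and control at 24 h was -0.51 ± 0.26 (limma adjusted p = 0.382 over probe sets). The fit with the covariate thus did not exclude a 2-fold fall at 24 h. Against untransfected cells ERRFI1 was lower in control cells at 24 h (-0.56 ± 0.17, limma adjusted p = 0.0145), with overlapping groups. Of its 18 alternatives, 4 did not keep the call: leaving out control 24 h replicate 3 (-0.33, limma adjusted p = 0.112), leaving out untransfected 0 h replicate 2 (-0.51, limma adjusted p = 0.0558), fitting the 6 arrays alone (limma adjusted p = 0.0837) and a fit with the 3' minus 5' covariate (-0.39, limma adjusted p = 0.249). Untransfected cells had the highest group mean (11.93) and mir-429 cells at 24 h the lowest (11.07), and of the neighbours in that order only control at 144 h and mir-429 at 48 h did not overlap.

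**Figure D2:**
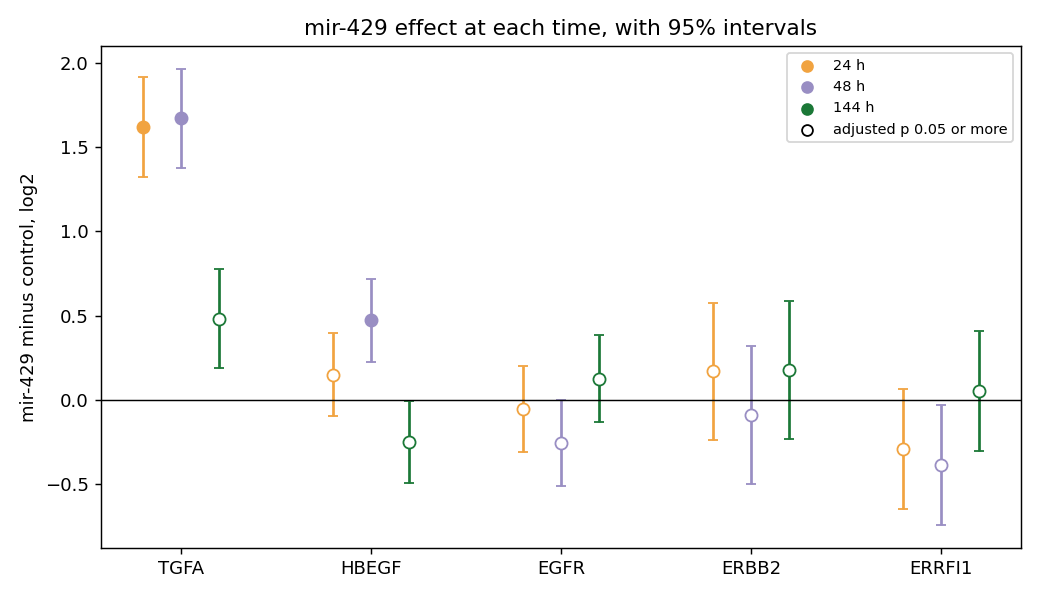
Difference of mir-429 and control (vertical axis, log2) for the 5 tested members (horizontal axis) at 24, 48 and 144 h, with 95% intervals from limma; filled points passed the threshold. TGFA lies at 1.62, 1.67 and 0.48, and the intervals of EGFR and ERBB2 include 0 at each time.

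EGFR, the receptor of TGFA and HBEGF, was represented by its brightest probe set, 224999_at. At 24 h it was at 10.01, 10.08 and 10.00 with mir-429, against 10.20, 9.82 and 10.24 with control. The arms overlapped (-0.05 ± 0.12, limma adjusted p = 0.789). At 48 h the values were 10.83, 10.47 and 10.60 with mir-429, against 10.89, 10.95 and 10.82 with control, so that only the highest mir-429 array reached the lowest control array (-0.26 ± 0.12, 95% interval -0.51 to 0.0008; limma adjusted p = 0.157). At 144 h they were 10.67, 10.89 and 10.65 with mir-429, against 10.74, 10.56 and 10.53 with control (0.13 ± 0.12, limma adjusted p = 0.641). A change of 2-fold in either direction lay outside the interval at all 3 times on this probe set. Both arms at 24 h lay below all other groups, and control cells at 24 h differed from untransfected cells by -0.47 ± 0.12 (limma adjusted p = 0.00581; adjusted p = 0.142 with the 3' minus 5' covariate). At 48 h control cells were higher than untransfected cells by 0.33 ± 0.12 (limma adjusted p = 0.029), which did not hold when untransfected 0 h replicate 1 (0.25, limma adjusted p = 0.139) or control 48 h replicate 1 or 2 was left out (limma adjusted p = 0.0577 and 0.0793). It was also lost with the 3' minus 5' covariate, where the value was 0.85 (limma adjusted p = 0.374), with array weights (limma adjusted p = 0.0777) and in a fit of the 6 arrays alone (limma adjusted p = 0.0582).

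The 9 EGFR probe sets did not agree. On 211607_x_at EGFR was lower with mir-429 at 24 h, at 5.77, 5.55 and 5.45 against 6.53, 5.98 and 6.99 with control (-0.91 ± 0.19, limma adjusted p = 0.003). On 210984_x_at it was at 5.71, 5.48 and 5.57 with mir-429, against 6.33, 5.88 and 6.99 with control (-0.82 ± 0.20, limma adjusted p = 0.0102). The arms did not overlap on either of these, in contrast to 224999_at. On 201983_s_at the control arrays at 24 h ranged from 7.62 to 10.61, against 8.36 to 8.87 with mir-429, a spread that left that probe set uncalled. At 144 h 201984_s_at was higher with mir-429, at 8.996, 8.83 and 8.75 against 8.44, 8.45 and 8.25 with control (0.47 ± 0.11, limma adjusted p = 0.0158; 4.29% of probe sets were called). The dim 211550_at was called lower at 48 h (limma adjusted p = 0.0321) with overlapping arms near the array medians.

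Array quality is set beside these probe sets here. In control cells at 24 h against untransfected cells, 211607_x_at and 210984_x_at were higher by 0.54 ± 0.19 and 0.59 ± 0.20 (limma adjusted p = 0.041 and 0.0387; 29.8% of probe sets were called), while 224999_at was lower. In control cells at 48 h, where the 3' minus 5' signal was 7.83, 211607_x_at was at 7.65 to 7.98, against 5.92 to 6.04 in untransfected cells with a signal of 3.15 (1.80 ± 0.19, limma adjusted p = 9.51e-07; 52.7% of probe sets were called). On 201983_s_at the same comparison gave 1.97 ± 0.51 (limma adjusted p = 0.00342), against 0.33 ± 0.13 on 224999_at. Between the arms the order did not follow the signal throughout. At 24 h control had the higher 3' minus 5' signal and the higher values on 211607_x_at and 210984_x_at. At 144 h control again had the higher signal (3.90 against 3.35 with mir-429), but the mir-429 arrays were above control on both, at 6.48 to 6.63 against 5.77 to 6.29 on 211607_x_at. At 48 h mir-429 had the higher signal and lay below control on 211607_x_at. With that signal as a covariate the differences at 24 h were of similar size with larger SEs and did not pass the threshold (-0.79 ± 0.29, limma adjusted p = 0.192, and -1.06 ± 0.30, limma adjusted p = 0.0847), nor did that of 201984_s_at at 144 h (0.39 ± 0.11, limma adjusted p = 0.0614). With the covariate, the change of the difference from 24 to 144 h was called higher on 210984_x_at (1.49 ± 0.32, limma adjusted p = 0.0113), 211607_x_at (1.34 ± 0.30, limma adjusted p = 0.0153) and 201984_s_at (0.56 ± 0.15, limma adjusted p = 0.042). It was not called on 201983_s_at (1.34), 211550_at (0.27), 224999_at (0.27) or 211551_at (-0.40). The direction of a difference in EGFR depended on the probe set, and none is given for the gene.

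**Figure D3:**
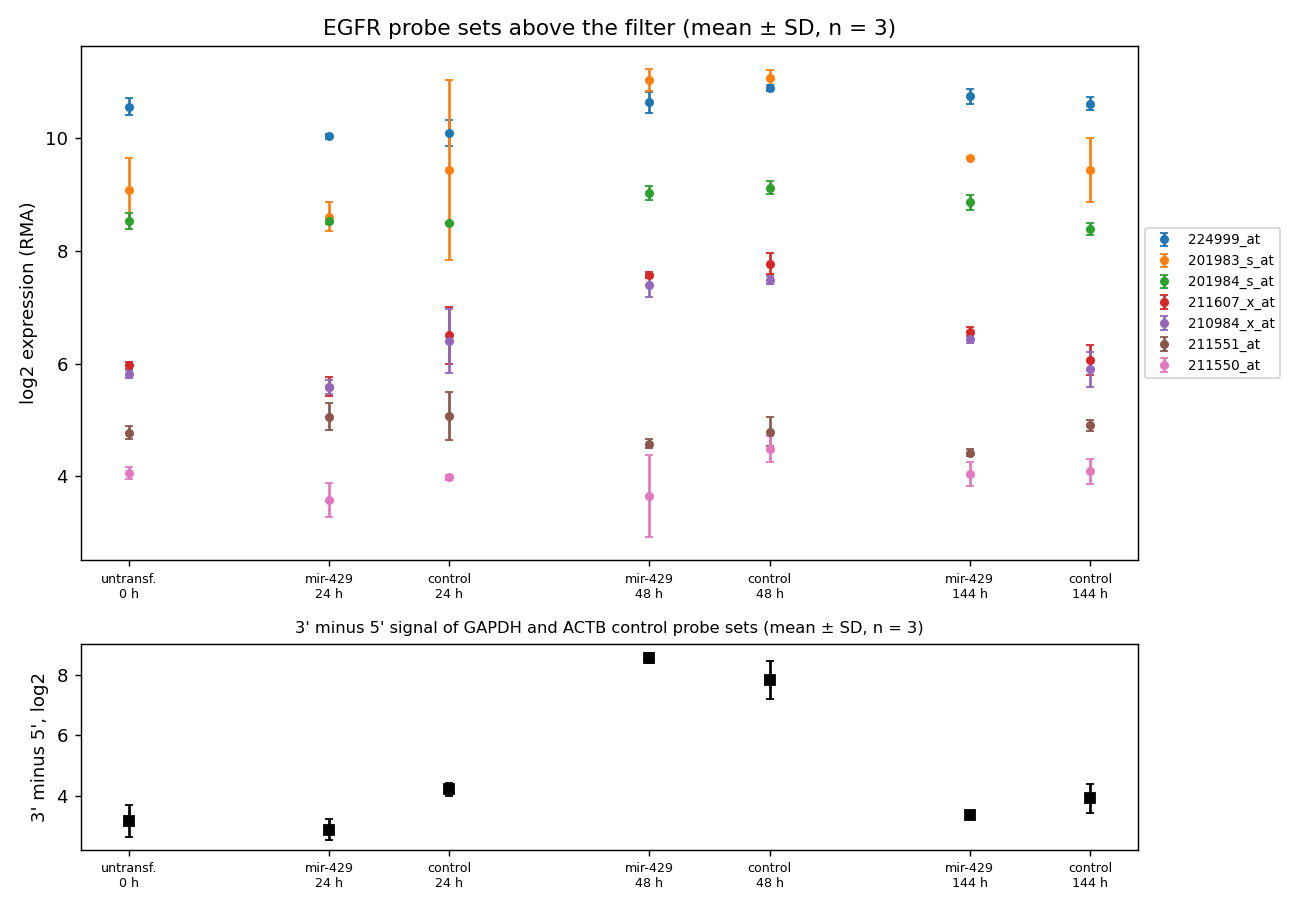
Upper panel: log2 expression (vertical axis, mean ± SD of 3 arrays) of the 7 EGFR probe sets that passed the filter, by group. Lower panel: the 3' minus 5' signal (log2, mean ± SD of 3 arrays) in the same groups. The means of 201983_s_at, 201984_s_at, 211607_x_at and 210984_x_at and of this signal were all highest in the 48 h groups. On 201984_s_at, arrays of the 48 h groups overlapped those of mir-429 at 144 h.

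ERBB2, the ligand-less partner receptor, was read by 216836_s_at and showed no called difference. At 24 h it was at 6.65, 6.92 and 6.82 with mir-429, against 6.25, 7.28 and 6.35 with control, so that control 24 h replicate 2 stood above all others. The difference was 0.17 ± 0.19 (limma adjusted p = 0.572), and without that array it was 0.50 (limma adjusted p = 0.0093). With array weights it was 0.53 (limma adjusted p = 0.000768). Of 17 alternatives these 2 called ERBB2 higher, and 2 others gave ERBB2 the opposite sign. At 48 h it was at 6.77, 6.68 and 6.67 with mir-429, against 6.71, 6.74 and 6.94 with control (-0.09 ± 0.19). At 144 h it was at 6.84, 6.89 and 6.81 with mir-429, against 6.50, 6.58 and 6.93 with control (0.18 ± 0.19). The 95% intervals reached from -0.50 to 0.59 over the 3 times. Averaged over times, ERBB2 was called in 1 of 28 alternatives, without control 24 h replicate 2 (0.19, limma adjusted p = 0.0495). All neighbouring groups in the order of ERBB2 levels overlapped, and the means lay between 6.59 and 6.85. The other ERBB2 probe sets, 234354_x_at and 210930_s_at, lay below every array median.

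ERBB3, the neuregulin-binding receptor typical of epithelial cells, did not pass the filter on any of its 5 probe sets. On 202454_s_at it was at 3.28, 3.36 and 3.73 with mir-429 at 48 h, against 1.77, 1.64 and 2.56 with control. On 226213_at it was at 2.54, 3.24 and 3.62 with mir-429 at 24 h, against 2.07, 2.26 and 1.70 with control. The mir-429 arrays lay above control in both cases, but all these values were below the array medians, so that no fold is given. When every probe set was tested without a filter, a setting chosen after seeing the data, these 2 were called (limma adjusted p = 0.000139 and 0.0282), beside 7.74% and 7.3% of all probe sets at these times. Here 202454_s_at was not called at 24 h nor 226213_at at 48 h, and the other 3 were called at no time against control. Another ERBB3 probe set, 1563252_at, was at 3.38 to 4.18 with mir-429 and 3.43 to 4.23 with control over all times.

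ERBB4 and EREG were dim throughout. The 4 ERBB4 probe sets ranged from 1.58 to 3.81 on transfected and untransfected arrays, and none was called without the filter. EREG, epiregulin, was at 1.57, 1.69 and 1.85 on 205767_at with mir-429 at 48 h, against 2.40, 3.27 and 2.46 with control. Untransfected cells had 1.63, 1.67 and 1.76. All control arrays at 48 h lay above the mir-429 arrays of that time, but 1 mir-429 array at 144 h, at 2.55, lay among them. All were below the array medians, and without the filter the mir-429 arrays were called lower (limma adjusted p = 0.00707). The second EREG probe set, 1569583_at, overlapped between the arms at each time.

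**Figure D4:**
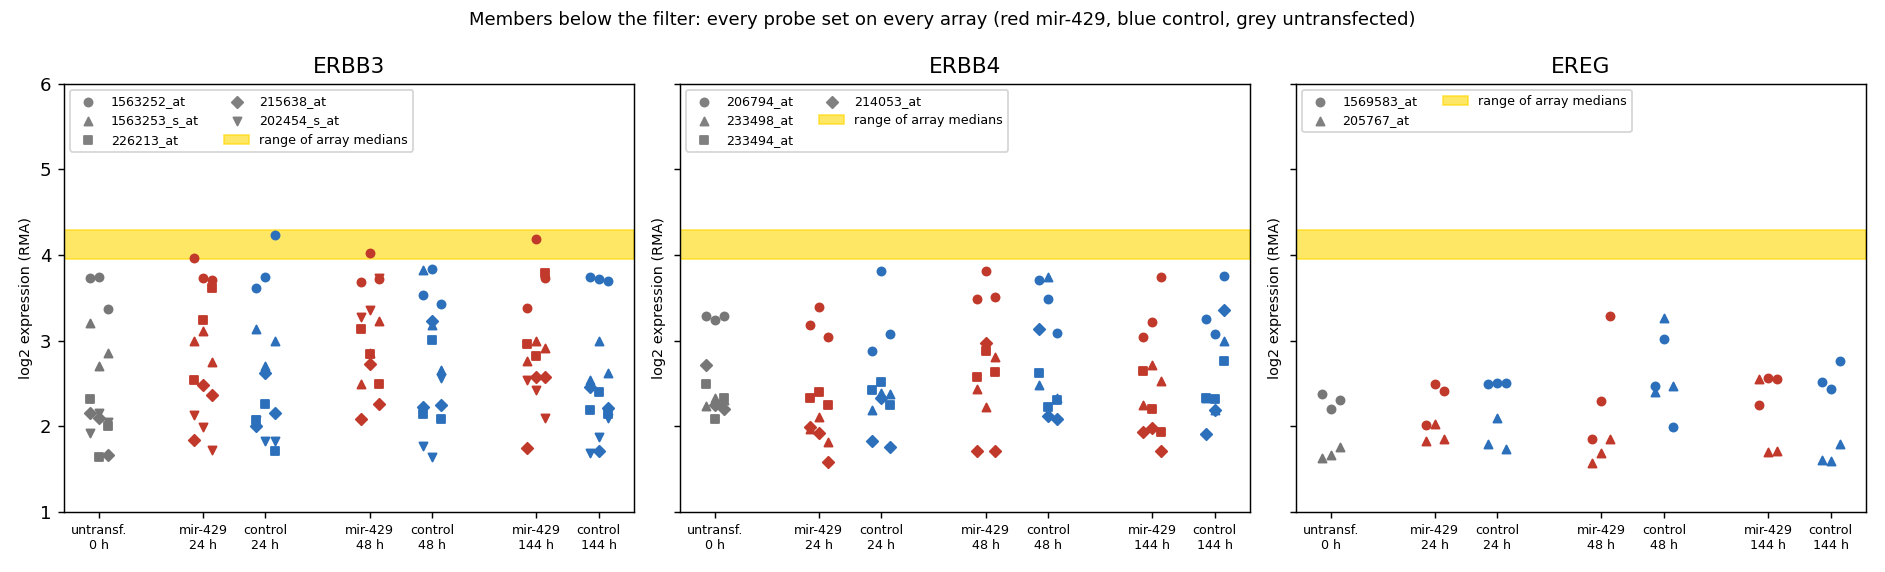
Log2 expression (vertical axis) of every ERBB3, ERBB4 and EREG probe set on each array, by group; marker shapes are probe sets, colours the arms, and the yellow band is the range of the array medians, 3.95 to 4.29. Nearly all points lie below the band, ERBB3 202454_s_at lies higher with mir-429 at 48 h than in control, and EREG 205767_at lies lower with mir-429 at 48 h than in control.

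Other ligands of the ERBB receptors were taken as a list of 7 genes. Of these, 4 were tested and 1 was called at 24 and at 48 h, against 15% and 9.32% of all genes called higher. It was the neuregulin NRG1, a ligand of ERBB3 and ERBB4, higher with mir-429 by 0.72 ± 0.11 at 24 h and 1.03 ± 0.11 at 48 h (limma adjusted p = 0.000182 and 3.61e-06) and at 0.11 ± 0.11 at 144 h (limma adjusted p = 0.674). It was also called higher with the 3' minus 5' covariate at 24 and 48 h. Its group means were 8.81, 8.93 and 8.09 with mir-429 and 8.08, 7.89 and 7.98 with control at 24, 48 and 144 h. NRG2 and NRG4 did not pass the threshold in these comparisons, and EGF was too dim to give a fold. BTC and NRG3 lay below the array medians.

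Among 13 genes of ligand processing, all tested, 3 were higher and 3 lower with mir-429 at 24 h, 1 and 1 at 48 h, and 1 and 1 at 144 h. Over all genes 15%, 9.32% and 1.48% were called higher and 11.6%, 11.3% and 4.37% lower at these times, shares that apply to each list that follows. The metalloproteases ADAM9 (1.00 ± 0.14), ADAM10 (0.63 ± 0.12) and ADAM19 (0.57 ± 0.13) were higher at 24 h, and TIMP1, a metalloprotease inhibitor, was lower (-0.60 ± 0.12, limma adjusted p = 0.00108). RHBDL2 (-0.57 ± 0.16, limma adjusted p = 0.0137) and RHBDF1 (-0.44 ± 0.15, limma adjusted p = 0.0427) were the other genes called lower then. ADAM17, the main protease that releases TGFA, was higher at 48 h (0.47 ± 0.12, limma adjusted p = 0.0108), where the inhibitor TIMP3 was lower with overlapping arms (-0.36 ± 0.12, limma adjusted p = 0.0402). At 144 h ADAM12 was lower (-0.78 ± 0.12) and ADAM8 higher (0.51 ± 0.14). The median change of the list was 0.18, 0.02 and 0.08 at the 3 times, beside -0.02, -0.01 and -0.04 over all genes. ADAM9 was the member still called at 24 h with the 3' minus 5' covariate, where 2.76% of all genes were called higher and 2.01% lower.

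Of the receptor adaptors and effectors, 29 of 41 were tested, with 4 higher and 3 lower at 24 h, 4 and 4 at 48 h, and 0 at 144 h by limma. These counts lie near or below the shares over all genes (15% higher and 11.6% lower at 24 h, 9.32% and 11.3% at 48 h). They were 1 higher and 2 lower at 24 h, 5 and 4 at 48 h, and 0 at 144 h by limma with the 3' minus 5' covariate. With that covariate 2.76%, 7.6% and 1.28% of all genes were called higher at these times, and 2.01%, 9.14% and 3.26% lower. PLCG1, the phospholipase that EGFR activates directly, was lower with mir-429 by -1.10 ± 0.14 at 24 h and -0.96 ± 0.14 at 48 h (limma adjusted p = 1.88e-05 and 5.95e-05) and at -0.17 ± 0.14 at 144 h (limma adjusted p = 0.54). The phosphatase PTPN11 (-0.60 ± 0.09 and -0.41 ± 0.09) and the adaptor CRKL (-0.49 ± 0.11 and -0.43 ± 0.11) were also lower at 24 and 48 h. The docking protein GAB2 was lower at 48 h (-0.86 ± 0.12). The kinase MAP2K1, which activates ERK, was higher at 24 and 48 h (0.61 ± 0.10 and 0.32 ± 0.10). So was the transcription factor STAT3 (1.04 ± 0.25 and 1.19 ± 0.25). The median of the list stayed between -0.04 and 0.01.

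Of 23 genes of receptor inhibition and turnover, 22 were tested, with 5 higher and 4 lower at 24 h, 2 and 3 at 48 h, and 0 and 2 at 144 h, beside 15% and 11.6%, 9.32% and 11.3%, and 1.48% and 4.37% of all genes. LRIG1, a membrane protein that promotes the breakdown of ERBB receptors, was lower with mir-429 at all 3 times, by -0.44 ± 0.11, -1.45 ± 0.11 and -0.38 ± 0.11 (limma adjusted p = 0.00637, 3.86e-08 and 0.0498). In control cells at 48 h LRIG1 was higher than in untransfected cells by 1.48 ± 0.11, and mir-429 cells at 48 h had a mean of 7.71, against 9.15 in control and 7.67 in untransfected cells. The ubiquitin ligase CBLB, which marks activated receptors for degradation, was lower at 24 h (-0.48 ± 0.13, limma adjusted p = 0.0118) and 48 h (-0.76 ± 0.13, limma adjusted p = 0.000468). The phosphatase PTPN1 was lower at 24 h (-0.66 ± 0.10), and RNF41, SOCS4 and SOCS5 were higher then (0.53 ± 0.10, 0.57 ± 0.10 and 0.77 ± 0.15). With the 3' minus 5' covariate no gene of this list was called at 24 or 144 h, so the calls of LRIG1 at these times were lost, while 2.76% of all genes were called higher and 2.01% lower at 24 h and 1.28% and 3.26% at 144 h.

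The list named ERK feedback regulators holds mainly phosphatases and inhibitors of signalling. Of its 15 tested members, 6 were higher and 0 lower with mir-429 at 24 h. At 48 and 144 h 4 and 1 were higher, with 0 lower. Over all genes 15%, 9.32% and 1.48% were called higher. At 24 h DUSP5, a nuclear ERK phosphatase, was higher by 1.10 ± 0.21 (limma adjusted p = 0.00104), the RAS inhibitor RASAL2 by 0.55 ± 0.13 and SPRY1, dim in control arrays, by at least 0.74. SPRY2 was higher by 0.49 ± 0.14 (limma adjusted p = 0.0164), and DUSP10 was called with overlapping arms (1.21 ± 0.30). At 48 h DUSP4 was higher by 1.51 ± 0.19, DUSP5 by 1.03 ± 0.21, DUSP6 by 0.48 ± 0.13 and the mRNA decay factor ZFP36 by 0.61 ± 0.20. At 144 h DUSP4 was higher by 0.68 ± 0.19 (limma adjusted p = 0.039). With the 3' minus 5' covariate 0 of the 15 were called by limma at 24 h, DUSP4 and DUSP5 at 48 h, and 0 at 144 h. In that fit 2.76%, 7.6% and 1.28% of all genes were called higher at these times, and 2.01%, 9.14% and 3.26% lower. In control cells at 24 h against untransfected cells the list went 2 higher and 6 lower, beside 38% of all genes called in either direction. SPRY1 was lower there by at least 0.77.

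ERK output genes, transcripts that ERK activity raises in many cells, had 6 of 29 tested members higher and 2 lower at 24 h, 8 and 2 at 48 h, and 3 and 0 at 144 h, beside 15%, 9.32% and 1.48% of all genes higher and 11.6%, 11.3% and 4.37% lower. DUSP4, DUSP6, SPRY2 and SPRY4 belong to both lists. ETV1 was higher at 24 h (0.85 ± 0.11, limma adjusted p = 2.2e-05) and 48 h (1.16 ± 0.11), and the uridine phosphorylase UPP1 at 48 and 144 h (1.01 ± 0.15 and 1.00 ± 0.15). FOSL1, an AP-1 subunit, was higher at 144 h (0.46 ± 0.13, limma adjusted p = 0.0405). ODC1, the polyamine synthesis enzyme, was lower at 24 and 48 h (-0.65 ± 0.12 and -0.71 ± 0.12), and ELK3 was lower at 24 h (-0.51 ± 0.13). The medians of the list were 0.19, 0.11 and 0.15 at the 3 times. With the 3' minus 5' covariate the counts were 1 higher and 1 lower at 24 h, 6 and 1 at 48 h, and 1 and 0 at 144 h, beside 2.76%, 7.6% and 1.28% of all genes higher and 2.01%, 9.14% and 3.26% lower.

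**Figure D5:**
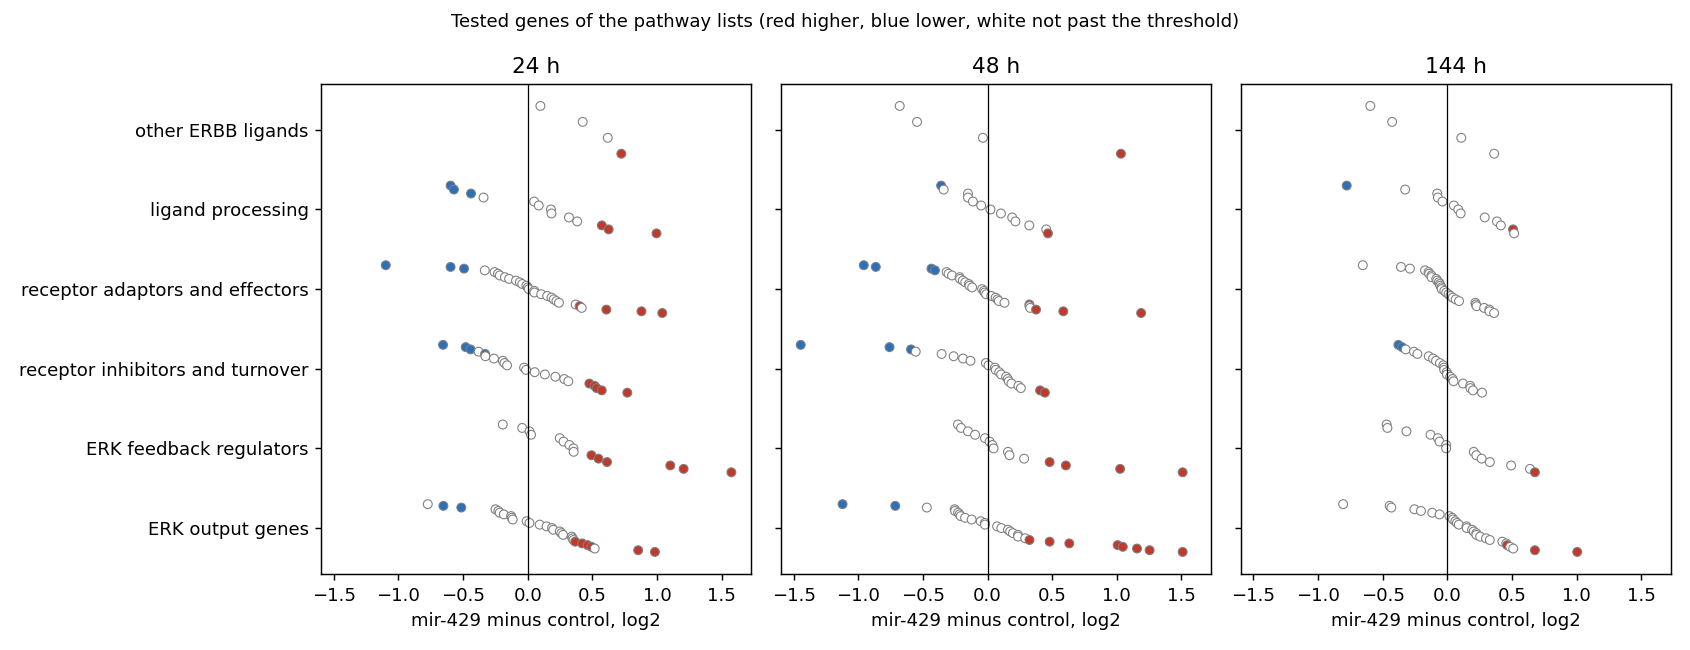
Difference of mir-429 and control (horizontal axis, log2) for each tested gene of the 6 pathway lists (vertical axis, genes sorted by value within a list) at 24, 48 and 144 h; red genes were called higher, blue lower and white neither. The red points of the ERK feedback list have no blue ones beside them, and few points are coloured at 144 h.

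The genes whose 7 group means ran most like those of a member were found among 5213 tested genes whose means spanned at least 1. For TGFA they were the desmosomal PKP2 (Pearson r = 0.993), CMTM4 (0.989) and KLHL28 (0.982). For EGFR they were FAM117B (0.992), SYTL2 (0.981) and COL5A2 (0.967), for HBEGF CNNM2 (0.955), MAST3 (0.949) and ADAP1 (0.945), and for ERRFI1 TMEM65 (0.968), GAS2L3 (0.967) and ZYG11B (0.957). For ERBB2, whose means hardly varied, the highest were LGALS3 (0.744), GPR65 (0.731) and BHLHE40 (0.614). These correlations rest on 7 means that share arrays and their quality, and were picked as the highest of 5213.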

How the data were processed

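Biotin-labelled RNA of HEY cells, amplified with a 3'-directed kit per the labels' protocols, was measured on 21 arrays. The authors deposited log2 values summarised per probe set with RMA, according to the submitters' processing notes, and these were used as deposited. Software version and genome build: not given in the sources used here. GEO's platform annotation gave 1 symbol to 41097 of 54675 probe sets, several to 1801 (left unnamed) and none to 11777. Entrez identifiers were looked up in RefSeq (GRCh38.p14), and 99.9% matched. The brightest probe set on average stood for a gene (19775 genes), and genes over their array's median on 3 or more arrays were tested (12879). A second fit held the 30553 probe sets that met the same filter.

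limma 3.58.1 in R 4.3.3 fitted 7 group means (14 residual degrees of freedom, prior 3.93), with two-sided tests and Benjamini-Hochberg adjustment over all features of each of 10 comparisons. The SE pools all groups, although arrays of a group differed more in control cells at 48 h (SD of the difference of 2 arrays 0.392 to 0.472) than in untransfected cells (0.172 to 0.254). Comparisons of mir-429 with control and of control with untransfected cells share the control arrays. A gene with 1 group under the array medians is given as "at least", with that group set to the median. Precision is limited by the number of arrays.

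Members, lists, tests and alternatives were chosen with earlier results of these data known. Genes named from a list were taken from the up to 4 with the smallest adjusted p in each mir-429 comparison at 1 time. In each control comparison they were taken from up to 2. Not all of these genes are named in the results. FOS (higher at 24 h), SOCS3 (lower at 48 h) and UBASH3B (higher at 48 h, lower at 144 h) were called but left out. PLCG1, LRIG1, SPRY2, DUSP6, RHBDL2 and RHBDF1 were added. Scripts were tested on simulated data. Alternatives changed the scaling, filter, probe set choice, arrays fitted, variance model, array weights, replicate block and 3' minus 5' covariate, or left out an array. Same-numbered mir-429 and control arrays did not deviate together at every time. Their correlations across genes were 0.279, 0.091 and 0.184 at 24 h, and -0.127 to 0.203 at 48 and 144 h. Arrays of different number had -0.289 to 0.221 over all times, and replicate numbers were not treated as pairs.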

Additional observations from a re-analysis of the deposited data

Results flagged for a closer look

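Tested in limma's fit with the brightest probe set per gene, the difference between mir-429 and control cells itself changed with time for 2 members. For TGFA it was smaller at 144 h than at 24 h by a change of -1.14 ± 0.20 (limma adjusted p = 0.000965) and smaller at 144 h than at 48 h by a change of -1.19 ± 0.20 (limma adjusted p = 0.000802). For HBEGF the difference at 144 h set against that at 48 h changed by -0.72 ± 0.17 (limma adjusted p = 0.00906), with all mir-429 arrays above control at 48 h and all below at 144 h. The 48 h arrays of both arms had the highest 3' minus 5' signal of the series, and its part in these changes was not tested beyond the covariate fit.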

How the results depend on the processing

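TGFA was called higher with mir-429 at 24 and 48 h under every alternative run, with differences of 1.10 to 1.66 and 1.23 to 1.90, and the 2 calls between 48 and 144 h (HBEGF and TGFA) held in all 23 alternatives. With array weights, the number of members called was 3 at 24 h (TGFA, ERBB2 and ERRFI1) and 2 averaged over times (TGFA and ERRFI1). It was 1 at 144 h and 2 for the change from 24 to 144 h. In control against untransfected cells it was 1 at 48 h and 3 at 144 h. With only the arrays compared it was 1 at 48 h, 1 at 144 h, and in control against untransfected cells 1 at 48 h and 2 at 144 h. Without the 48 h arrays it was 1 at 144 h and 2 for the change from 24 to 144 h, and it was 1 at 144 h (TGFA) with cyclic loess, quantile normalization, a filter on all arrays of a group, or a trended and robust variance. With the 3' minus 5' covariate, control against untransfected cells gave 1, 0 and 0 calls at 24, 48 and 144 h, and with no filter, the mean of probe sets or the probe set of largest interquartile range 0 at 144 h. Leaving out each array gave 1 to 2 calls at 24 h (2 without control 24 h replicate 2, through ERBB2, or replicate 3, through ERRFI1), 1 to 2 averaged, 0 to 1 for the change from 24 to 48 h, and 1 to 3 and 0 to 0 in control against untransfected cells at 48 and 144 h. Of the members' probe sets, 4, 5 and 1 were called at 24, 48 and 144 h, against 5, 7 and 0 with no filter and 1, 4 and 0 with the covariate, both chosen after seeing the data.

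Differences that changed sign did not pass the threshold under the alternative. The mean of probe sets gave -0.0694 for ERBB2 at 24 h and -0.085 averaged, and in control against untransfected cells 0.0801 for EGFR at 24 h (0.34 on the probe set of largest interquartile range) and -0.0069 for TGFA at 144 h. The 3' minus 5' covariate gave -0.0295 for HBEGF at 24 h, -0.039 for ERRFI1 at 144 h, and in control against untransfected cells at 48 h 0.58 for ERRFI1 and 0.44 for HBEGF. Array weights gave -0.0206 for EGFR in control against untransfected cells at 144 h. Leaving out an array gave -0.19 to 0.0224 for EGFR and -0.0201 to 0.50 for ERBB2 at 24 h, -0.0925 to 0.28 for the TGFA change from 24 to 48 h, and -0.0304 to 0.10 for EGFR in control against untransfected cells at 144 h. ERBB2 at 24 h without control 24 h replicate 2 kept its sign and was called. The cause was not tested.

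The replicate numbers were not treated as pairs. A fit with the replicate number as a block gave 1, 2 and 0 members called at 24, 48 and 144 h and changed no call. Signals below the array medians limit what can be said of ERBB3, ERBB4 and EREG.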
